A study of Mus musculus with 12 samples.

Results

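The T cell receptor (TCR) signalling module was followed here in mouse regulatory T (Treg) cells through 9 genes of the 24502 in the deposited table. They are the 4 CD3 chain genes (Cd3d, Cd3e, Cd3g and Cd247), the kinase genes Lck and Zap70, the adaptor genes Lat and Lcp2, and Laptm5, which encodes a lysosomal regulator of the receptor. The genes were chosen by symbol, each matched 1 row of the table, and all 9 were among the 14827 genes that passed the filter on low counts. They were chosen with the levels and fold changes of these same libraries in view, in all comparisons described here. Their values are therefore a description, and the adjusted p printed for a member is its value in the fit over all genes, not independent support for the choice.

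Bulk RNA sequencing covered 4 groups with 3 libraries each, 12 in all. The groups were stimulated Gpx4-deficient cells (strain Foxp3CreGpx4fl/fl), stimulated wild-type cells (WT), unstimulated Gpx4-deficient cells and unstimulated WT cells. In the Foxp3CreGpx4fl/fl strain, Cre recombinase under control of Foxp3, the gene of the Treg transcription factor, removes a loxP-flanked Gpx4, the gene of an enzyme that reduces lipid hydroperoxides. Stimulated cells had spent 4 h on plates coated with anti-CD3 and anti-CD28 (5 µg/ml), so the stimulus acted through the receptor whose genes are described. All mice were 11 weeks old per the labels, which do not say whether WT mice carried Foxp3Cre, whether replicates came from separate mice, or how long unstimulated cells were cultured. The p-values thus measure the spread of these libraries only, possibly a technical one, and stimulation and culture cannot be told apart.

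The CD3 delta, epsilon, gamma and zeta (Cd247) chains carry the signalling motifs of the TCR, whose alpha and beta chains bind antigen. After engagement the kinase LCK phosphorylates those motifs, ZAP70 docks on them, and ZAP70 phosphorylates the adaptors LAT and SLP-76 (Lcp2), from which the calcium, Ras and NF-kB branches start. LAPTM5 is a transmembrane protein of lysosomes in blood cells; in mouse T cells it is known to promote lysosomal degradation of the zeta chain and so to lower receptor levels at the surface. Treg cells need TCR signals for their suppressive function.

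The promoters of the CD3 genes and of Laptm5 are shown because their transcripts were lower after stimulation, and that of Cd247 because its level was not called changed. Lck and Lat were also lower and Zap70 was also not called, and their promoters are not printed. Cd3g and Cd3d start 1355 bases apart on opposite strands, pointing away from each other, and Cd3e lies in the same 40056-base stretch of chromosome 9, whereas Cd247 lies on chromosome 1 and Laptm5 on chromosome 4. The sequences are from RefSeq (GRCm38.p6), 5′ to 3′ on the strand of the gene. Each gives up to 250 bases before the gene's start, cut at the GENCODE start. Capitals mark CANNTG (E box), TGTGGT (RUNX), TATAAA (the TATA box) and TGANTCA (AP-1).
Cd3g (chr9:44980432-44980681, minus strand): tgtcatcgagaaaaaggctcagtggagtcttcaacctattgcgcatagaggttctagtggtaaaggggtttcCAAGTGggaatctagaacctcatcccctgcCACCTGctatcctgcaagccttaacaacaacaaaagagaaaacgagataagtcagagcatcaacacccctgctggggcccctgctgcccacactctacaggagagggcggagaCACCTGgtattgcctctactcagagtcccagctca
Cd3d (chr9:44981536-44981785, plus strand): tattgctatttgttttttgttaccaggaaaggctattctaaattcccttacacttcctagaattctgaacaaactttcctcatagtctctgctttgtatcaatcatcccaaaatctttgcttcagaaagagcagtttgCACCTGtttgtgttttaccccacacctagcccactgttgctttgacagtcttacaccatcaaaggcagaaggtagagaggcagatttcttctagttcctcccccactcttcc
Cd3e (chr9:45009628-45009861, minus strand): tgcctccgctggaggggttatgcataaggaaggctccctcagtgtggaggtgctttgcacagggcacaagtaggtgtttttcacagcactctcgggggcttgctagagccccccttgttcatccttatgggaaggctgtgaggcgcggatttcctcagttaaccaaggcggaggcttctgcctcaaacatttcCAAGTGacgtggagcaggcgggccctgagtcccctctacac
Cd247 (chr1:165788431-165788680, plus strand): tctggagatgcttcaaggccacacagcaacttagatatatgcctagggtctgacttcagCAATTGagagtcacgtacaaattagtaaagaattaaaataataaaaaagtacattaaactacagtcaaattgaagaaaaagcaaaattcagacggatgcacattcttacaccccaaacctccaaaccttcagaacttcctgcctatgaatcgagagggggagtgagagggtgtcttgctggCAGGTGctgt
Laptm5 (chr4:130913066-130913124, plus strand): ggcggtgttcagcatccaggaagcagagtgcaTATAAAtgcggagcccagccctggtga

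In the 4 printed CD3 promoters the capitals are E boxes only. Laptm5 shows a TATAAA whose first base lies 27 bases before the GENCODE start, and it was the only member with that motif in its windows. All 9 members matched RefSeq promoter windows, 12 in all because some genes have several starts. Searched on both strands over the 250 bases before the RefSeq start, an E box was in 11 of the 12 windows and in 66.2% of 32851 promoters. In Laptm5 only the first 59 bases of that window, those printed, lie before the GENCODE start. Its E box lies past them, inside the annotated gene. TGTGGT was in 2 of 12 windows, those of Lck and Zap70 among the genes not printed, and in 14.0% of promoters. TATAAA was in 1 of 12 and in 12.4%, and TGANTCA in 0 of 12 and in 6.7%. The GGAA core of ETS factors was in 11 of 12 windows and in 93.4% of promoters, and GGGCGG (GC box) in 2 of 12 and in 32.7%. A match describes letters and not a bound site, and no match says only that the letters are not in the window.

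Library totals ran from 24629225 to 31879259 counts. CPM are read counts scaled to the library total, adjusted by a factor for each library of 0.957 to 1.023. Gpx4 stood at 3.34, 9.23 and 8.52 CPM in stimulated Gpx4-deficient libraries and at 107, 82.8 and 69.2 CPM in stimulated WT libraries. Without stimulation it stood at 4.96, 7.30 and 12.3 CPM in Gpx4-deficient libraries and at 147, 172 and 142 CPM in WT libraries, so every library fitted its genotype label. The stimulated Gpx4-deficient libraries stood apart in quality measures. Their share of counts in mitochondrially encoded genes was 2.84% to 3.72%, against 1.18% to 1.37% in stimulated WT, 1.72% to 1.94% in unstimulated Gpx4-deficient and 1.21% to 1.38% in unstimulated WT libraries. Genes listed at 0 in a library that averaged at least 5 CPM over all other libraries numbered 107 to 190 per stimulated Gpx4-deficient library. The other groups had 25 to 70, 9 to 55 and 14 to 23 in the same order. Replicate 3 of the stimulated Gpx4-deficient libraries had the most. Library identifiers in the labels run in separate blocks for the genotypes. The labels do not say what these numbers mark, and whatever they mark cannot be told apart from genotype. The 4 Treg markers (Foxp3, Il2ra, Ctla4 and Ikzf2) summed to 4657 to 5432 CPM in stimulated Gpx4-deficient, 3885 to 4296 in stimulated WT, 1219 to 1240.2 in unstimulated Gpx4-deficient and 1184 to 1277 CPM in unstimulated WT libraries. The marker lists of B cells, neutrophils, CD8 and NK cells, and dendritic cells (4, 5, 5 and 4 genes) each summed to at most 62.7 CPM in any library, and none of their tested genes was called in any comparison. The sums of these lists were uneven over the groups. Dendritic cell markers summed to 6.88 to 62.7 CPM in stimulated Gpx4-deficient, 24.0 to 42.0 in stimulated WT, 3.51 to 12.8 in unstimulated Gpx4-deficient and 4.95 to 13.0 CPM in unstimulated WT libraries. B cell markers summed to 5.03 to 60.8, 13.8 to 24.0, 26.2 to 47.6 and 40.2 to 51.9 CPM in the same order. CD8 and NK cell markers gave 9.84 to 25.0, 10.1 to 19.9, 18.4 to 31.2 and 22.7 to 35.8 CPM. Neutrophil markers gave 4.85 to 19.9, 4.12 to 13.0, 0.23 to 11.6 and 5.84 to 26.2 CPM. The part of such cells in the values of the 9 genes was not tested. Of the marker genes Ly6g was at 0 in all but the stimulated WT group, Cxcr2 in both unstimulated groups, Siglech in both WT groups, Cd8a in stimulated WT and unstimulated Gpx4-deficient libraries, and Ncr1 in stimulated Gpx4-deficient libraries.

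Per kilobase of annotated exon, the scale on which genes can be compared, Lck and Laptm5 held the 2 highest levels of the module in unstimulated cells and Cd247 the lowest. Lck averaged 628 ± 49.6 CPM per kb in unstimulated Gpx4-deficient libraries and 727 ± 20.02 in unstimulated WT libraries (SD, n = 3 each). Laptm5 averaged 695 ± 55.3 and 615 ± 24.1 CPM per kb in the same groups. In Gpx4-deficient cells the libraries of these genes overlapped, while in WT cells Lck was above Laptm5 in every library. With the longest transcript of each gene as length, Laptm5 was above Lck in every Gpx4-deficient library (944.9 to 1101 against 788 to 916 CPM per kb). Lck stayed above Laptm5 in every WT library on that scale. Cd3d, Cd3g, Cd3e, Lcp2 and Lat formed a middle group between 142 (Lat) and 207 CPM per kb (Cd3d) in unstimulated Gpx4-deficient libraries and between 135 and 238 in WT libraries. Neighbours in that middle order overlapped, except Cd3d over Lcp2 in Gpx4-deficient cells and Cd3g over Lcp2 in WT cells. Zap70 (85.4 ± 13.1 and 105 ± 3.49 CPM per kb) and Cd247 (65.2 ± 13.8 and 77.2 ± 2.83) came last, with overlapping libraries in Gpx4-deficient cells and separate ones in WT cells. The order of these 2 genes depended on the length used. With the longest transcript of each gene in place of all exons, Zap70 averaged 114 ± 17.5 and Cd247 117 ± 24.8 CPM per kb in Gpx4-deficient libraries, against 140.1 ± 4.65 and 139 ± 5.11 in WT libraries, and their libraries overlapped in both genotypes.

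**Figure D1:**
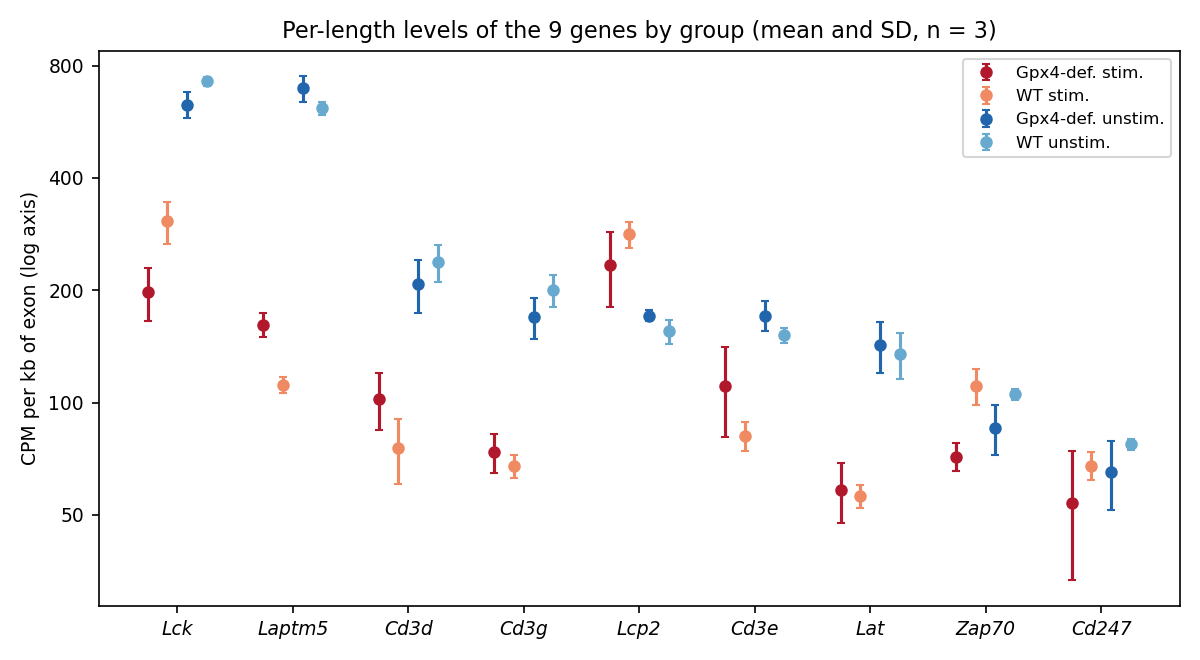
Mean CPM per kb of exon with SD (n = 3) for each of the 9 genes, on a log axis, in the 4 groups. Lck and Laptm5 are highest in unstimulated cells, and Lcp2 and Lck are highest after stimulation.

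After stimulation the order differed. Lcp2 and Lck came first, with overlapping libraries in both genotypes, at 234 ± 53.7 and 197 ± 31.8 CPM per kb in Gpx4-deficient libraries and at 282 ± 23.1 and 306 ± 39.1 in WT libraries. Laptm5 followed at 162 ± 11.7 CPM per kb in Gpx4-deficient libraries, overlapping Lck above it and separate from the next gene, Cd3e. In WT libraries it also followed them, at 111 ± 5.67 CPM per kb and overlapped Zap70 (111 ± 12.1). Cd247 was last in Gpx4-deficient cells (53.7 ± 20.3 CPM per kb), overlapping Lat (58.2 ± 10.6), and in WT cells Lat was last (56.0 ± 4.01), below every library of Cd3g (67.7 ± 4.76). With the longest transcript as length, Lat came last in both genotypes (78.4 ± 14.2 CPM per kb in Gpx4-deficient and 75.5 ± 5.41 in WT libraries), and Cd247 stood in the sixth place of 9 in both (96.7 ± 36.6 and 122 ± 10.6). On that scale the libraries of Laptm5 and Cd3e overlapped in Gpx4-deficient cells, and those of Lat and its neighbour in the order overlapped in both genotypes. Among 14540 genes with a length, Lck ranked 182 in stimulated and 53 in unstimulated Gpx4-deficient cells, and Laptm5 ranked 242 and 48 there. In WT cells Lck ranked 113 in stimulated and 39 in unstimulated cells, and Laptm5 424 and 52.

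Receptor stimulation was followed by lower transcript levels for most of the module in both genotypes: Cd3d, Cd3e, Cd3g, Lck, Lat and Laptm5 fell, and Lcp2 rose in WT cells. Cd247 and Zap70 were not called in either genotype. In Gpx4-deficient cells 6 of 9 members were called lower, where 7.83% of all tested genes were, and none was called higher, where 7.45% were. In WT cells 6 of 9 were called lower, where 5.41% of all genes were, and 1 was called higher, where 6.12% were. Every library of one state lay beyond every library of the other for 7 members in Gpx4-deficient cells and for 8 in WT cells, against 29.8% and 42.0% of all genes. The median log2 fold change of the members was -1.02 in Gpx4-deficient and -1.25 in WT cells, beside -0.02 and -0.03 over all genes. Calls are by edgeR's quasi-likelihood test at an adjusted p under 0.05 over all genes. CPM is a scaled share of the library, and in bulk RNA fewer cells of a type and less of an RNA per cell cannot be told apart.

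**Figure D2:**
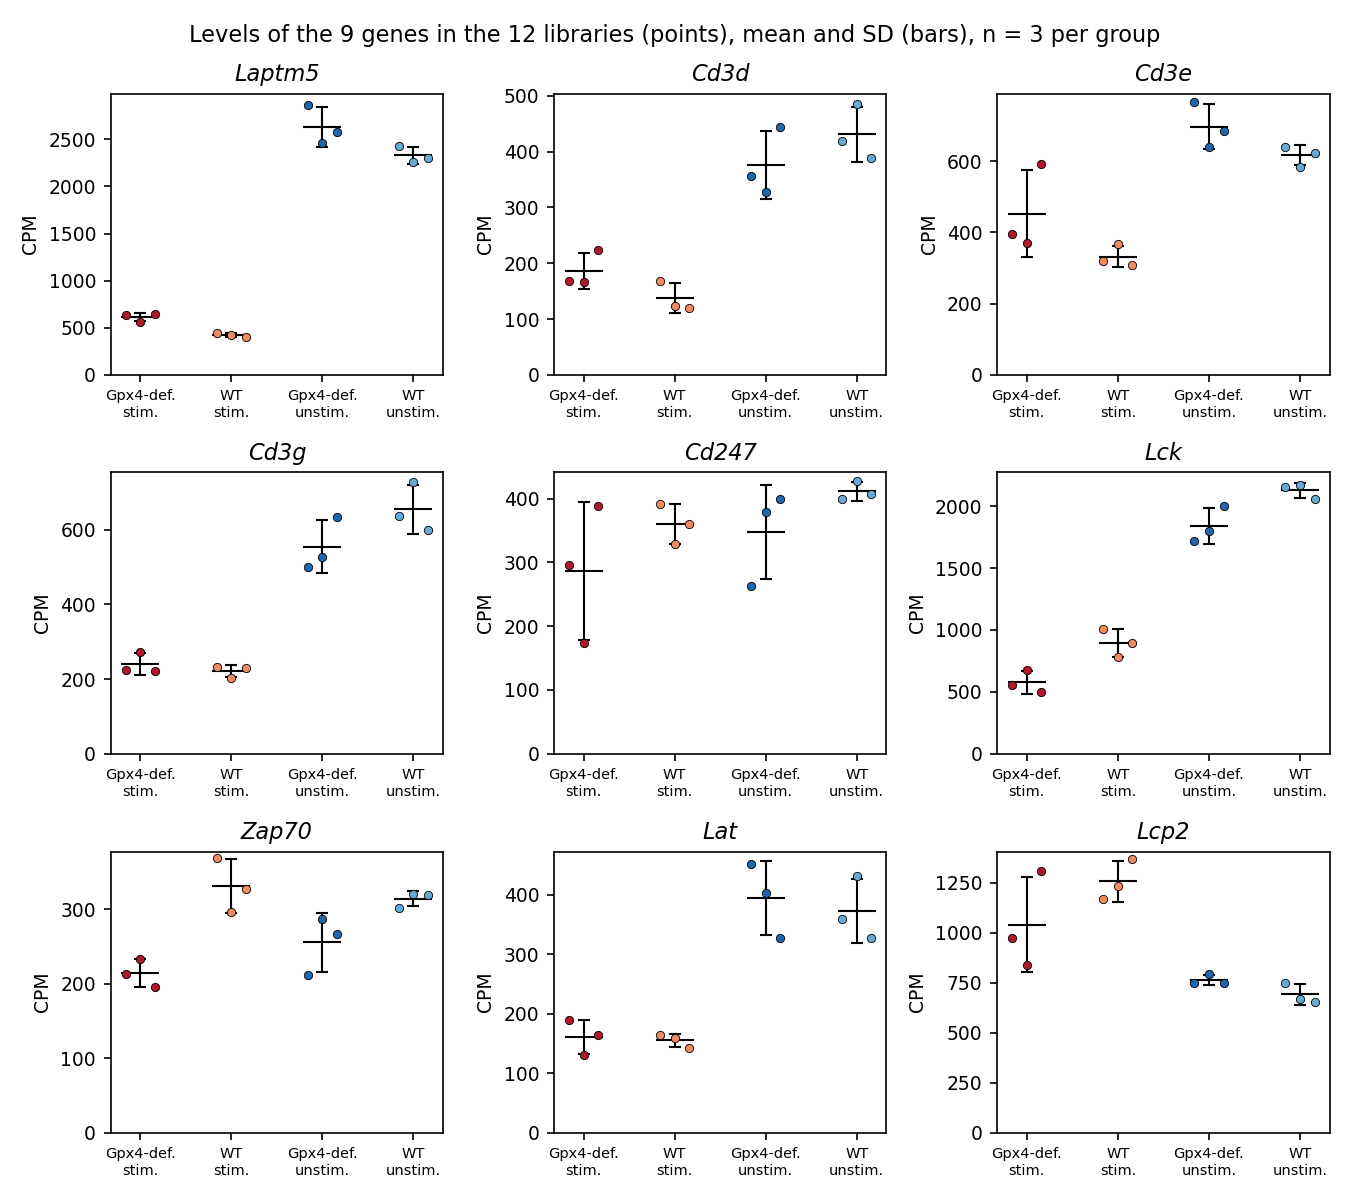
CPM of each of the 9 genes in each library (points), with the mean and SD of the 3 libraries of a group (bars), for the 4 groups. Laptm5, Cd3d, Cd3e, Cd3g, Lck and Lat lie lower in stimulated than in unstimulated cells of both genotypes. Zap70 overlaps between the states in both genotypes. Cd247 overlaps between them in Gpx4-deficient cells, and in WT cells its stimulated libraries lie just below the unstimulated ones.

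Of the receptor chains, Cd3d (delta; chromosome 9 from 44981786 to 44987339, plus strand, GRCm38) fell in both genotypes. In Gpx4-deficient cells it stood at 168, 166 and 223 CPM in stimulated libraries (replicates 1 to 3) and at 356, 328 and 444 CPM in unstimulated libraries. In WT cells it stood at 168, 123 and 119.8 CPM in stimulated and 420.1, 486 and 389 CPM in unstimulated libraries. Every stimulated library was below every unstimulated one of its genotype, and stimulated means were 49.4% and 31.7% of unstimulated means in Gpx4-deficient and WT cells. The log2 fold changes were -1.02 (SE 0.18, adjusted p = 0.00254) in Gpx4-deficient cells and -1.66 (SE 0.18, adjusted p = 8.26e-05) in WT cells by edgeR's quasi-likelihood test.

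Cd3g (gamma; chromosome 9 from 44969572 to 44980431, minus strand) behaved in the same way. It stood at 225, 273 and 222 CPM in stimulated and 500.3, 528 and 634 CPM in unstimulated Gpx4-deficient libraries. The WT libraries gave 232, 203 and 229 CPM with and 636, 727 and 599 CPM without stimulation. The states did not overlap in either genotype. Its log2 fold changes were -1.21 (SE 0.13, adjusted p = 7.19e-05) in Gpx4-deficient cells and -1.56 (SE 0.13, adjusted p = 9.28e-06) in WT cells (edgeR).

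Cd3e (epsilon; chromosome 9 from 44998740 to 45009627, minus strand) fell least of these 3 chains. It stood at 394, 369.7 and 593 CPM in stimulated and 767, 641 and 684 CPM in unstimulated Gpx4-deficient libraries. The WT values were 319.9, 366 and 309.5 CPM with and 642, 585 and 624 CPM without stimulation. Stimulated libraries were the lower ones throughout, and the highest of them was replicate 3 of the Gpx4-deficient group. The log2 fold changes were -0.62 (SE 0.16, adjusted p = 0.0222) in Gpx4-deficient cells and -0.90 (SE 0.16, adjusted p = 0.00312) in WT cells (edgeR). The call in Gpx4-deficient cells was lost without stimulated replicate 1 (adjusted p = 0.0697), stimulated replicate 2 (0.0662) or unstimulated replicate 1 (0.0819), and in a fit of those 6 libraries alone (0.0994). Cd3e overlaps the antisense gene model Gm48719, which reached at most 0.339 CPM in any library, and Gm48720 on its own strand, which reached 17.2 CPM and at most 3.32% of the Cd3e level.

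Cd247 (zeta; chromosome 1 from 165788681 to 165877277, plus strand) was not called in either genotype. It stood at 296, 173 and 389 CPM in stimulated and 264, 379 and 400.0 CPM in unstimulated Gpx4-deficient libraries, which overlapped. In WT libraries it stood at 392, 329.6 and 361 CPM with and 399, 428 and 408 CPM without stimulation, where the stimulated libraries lay just below the unstimulated ones. Its log2 fold changes were -0.28 (SE 0.24, adjusted p = 0.496) in Gpx4-deficient and -0.19 (SE 0.24, adjusted p = 0.755) in WT cells (edgeR), with the widest spread in stimulated Gpx4-deficient libraries, where replicate 2 was low. Cd247 overlaps Pou2f1 on the opposite strand over 12124 bases. Pou2f1 had 17.99 to 59.6 CPM over the 12 libraries, at most 34.5% of the Cd247 level in a library. The strand setting of the authors' counting is not given in the sources used here, and the part of Pou2f1 reads in the Cd247 values was not tested.

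Between states the makeup of the CD3 transcripts differed, with a larger average share of Cd247 in stimulated cells. Of the summed CPM per kb of the 4 chains, Cd247 held 17.7%, 10.9% and 17.8% in stimulated and 8.44%, 12.4% and 11.0% in unstimulated Gpx4-deficient libraries. In WT libraries it held 23.3%, 22.0% and 24.2% with stimulation and 11.4%, 11.3% and 12.2% without it. The WT states did not overlap, and in Gpx4-deficient cells the lowest stimulated library lay within the unstimulated range. Among stimulated libraries every Gpx4-deficient one was below every WT one. Cd3e held 32.2% ± 2.86 of the sum in stimulated and 28.1% ± 3.75 in unstimulated Gpx4-deficient cells, and 27.96% ± 3.58 in stimulated and 22.8% ± 2.35 in unstimulated WT cells (SD, n = 3). The shares of Cd3d and Cd3g were lower on average in stimulated cells of both genotypes, at 30.1% ± 0.61 against 33.7% ± 2.12 and 22.2% ± 5.71 against 27.6% ± 1.33 in Gpx4-deficient cells, and at 25.7% ± 3.18 against 35.6% ± 1.71 and 23.2% ± 1.58 against 30.0% ± 1.02 in WT cells.

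**Figure D3:**
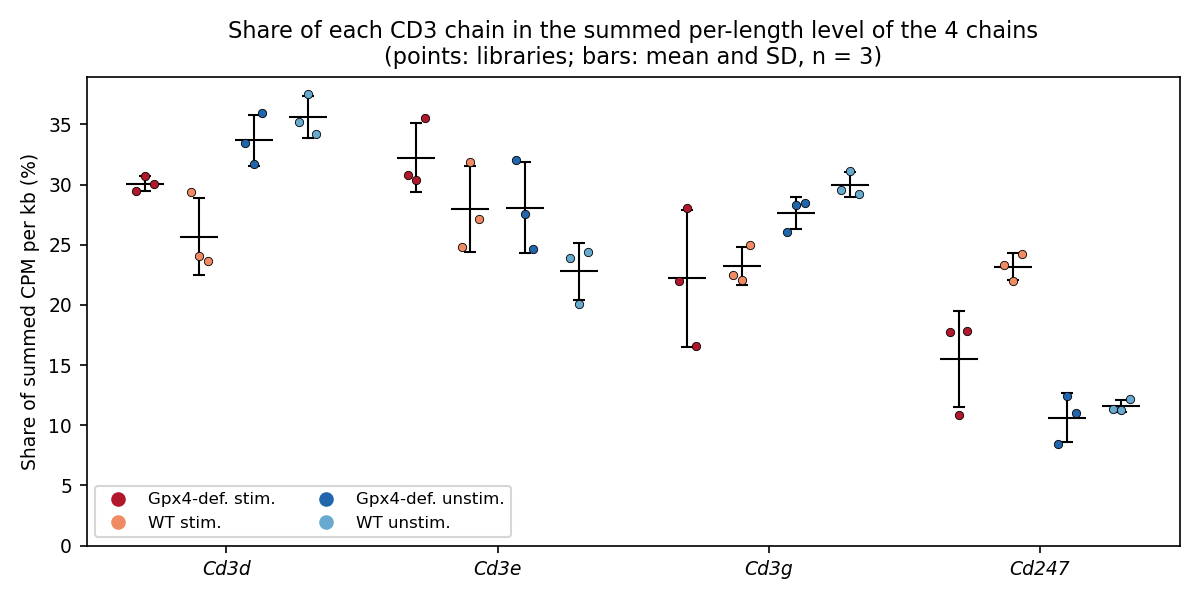
Share of each CD3 chain in the summed CPM per kb of the 4 chains, in percent, per library (points) with mean and SD (bars, n = 3). The share of Cd247 is highest in stimulated WT libraries, at 23.3%, 22.0% and 24.2%.

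The 2 kinases differed from each other. Lck (chromosome 4 from 129548344 to 129573641, minus strand), the Src-family kinase bound to the CD4 coreceptor, stood at 559, 679.8 and 497 CPM in stimulated and 1721, 1796 and 2002 CPM in unstimulated Gpx4-deficient libraries. WT libraries held 1010.3, 781 and 894 CPM with and 2153, 2170.4 and 2061 CPM without stimulation. Stimulated libraries were far below unstimulated ones in both genotypes, at 31.4% and 42.1% of the unstimulated mean in Gpx4-deficient and WT cells. Lck changed by -1.67 (SE 0.13, adjusted p = 3.99e-06) in Gpx4-deficient and by -1.25 (SE 0.12, adjusted p = 3.48e-05) in WT cells on the log2 scale (edgeR).

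Zap70 (chromosome 1 from 36761798 to 36782818, plus strand), the kinase that docks on phosphorylated CD3 chains, was not called with stimulation. It stood at 213, 233 and 196 CPM in stimulated and 212, 288 and 268 CPM in unstimulated Gpx4-deficient libraries. Its WT values were 369, 297 and 327 CPM with and 302, 321 and 319.8 CPM without stimulation. The states overlapped in both genotypes, and the log2 fold changes were -0.26 (SE 0.14, adjusted p = 0.232) in Gpx4-deficient and 0.07 (SE 0.14, adjusted p = 0.847) in WT cells (edgeR). Per kb, the ratio of Lck to Zap70 was 2.68, 2.98 and 2.59 in stimulated and 8.30, 6.38 and 7.64 in unstimulated Gpx4-deficient libraries. WT libraries gave 2.80, 2.69 and 2.79 with and 7.27, 6.90 and 6.58 without stimulation, so the states were separate and the genotypes overlapped within each state.

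The adaptors differed from each other. Lat (chromosome 7 from 126363824 to 126369570, minus strand), the membrane scaffold phosphorylated by ZAP70, stood at 189, 130.3 and 164 CPM in stimulated and 451, 402 and 328 CPM in unstimulated Gpx4-deficient libraries. The WT libraries gave 164, 159 and 143 CPM with and 359.7, 431 and 327 CPM without stimulation. The states did not overlap, and the log2 fold changes were -1.29 (SE 0.17, adjusted p = 0.000326) in Gpx4-deficient and -1.26 (SE 0.17, adjusted p = 0.000354) in WT cells (edgeR).

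Lcp2 (chromosome 11 from 34046920 to 34092295, plus strand), the gene of the cytosolic adaptor SLP-76, was the only one of the 9 called higher with stimulation, and it was called in WT cells only. It stood at 976, 841 and 1306 CPM in stimulated and 748, 792 and 747 CPM in unstimulated Gpx4-deficient libraries. In WT libraries it stood at 1168, 1234 and 1369.9 CPM with and 751, 671 and 652 CPM without stimulation. Every stimulated library was above every unstimulated one of its genotype, and the log2 fold changes were 0.45 (SE 0.14, adjusted p = 0.0502) in Gpx4-deficient and 0.86 (SE 0.14, adjusted p = 0.00147) in WT cells (edgeR). The Gpx4-deficient value missed the threshold and passed it with DESeq2 (adjusted p = 0.011), with RLE scaling (0.0476) and without stimulated Gpx4-deficient replicate 1 (0.0451) or 2 (0.00906). Lcp2 lies inside 4930469K13Rik on the opposite strand, which reached at most 0.49 CPM.

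Laptm5 (chromosome 4 from 130913125 to 130936141, plus strand) had the largest stimulation response of the 9 genes in both genotypes. It stood at 633, 562 and 643 CPM in stimulated and 2864, 2457 and 2574 CPM in unstimulated Gpx4-deficient libraries. WT libraries held 443, 423 and 399.9 CPM with and 2432, 2256 and 2299.9 CPM without stimulation. Stimulated means were 23.3% and 18.1% of the unstimulated means in Gpx4-deficient and WT cells, with no overlap. The log2 fold changes were -2.10 (SE 0.09, adjusted p = 4.46e-08) and -2.46 (SE 0.09, adjusted p = 2.19e-08) in the same order (edgeR).

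Laptm5 was also set against Cd247, the gene of the chain whose degradation the LAPTM5 protein promotes. The ratio compares transcripts only, and protein and surface receptor levels were not part of these data. The per-kb ratio of Laptm5 to Cd247 was 3.00, 4.57 and 2.33 in stimulated and 15.28, 9.13 and 9.05 in unstimulated Gpx4-deficient libraries. The WT ratios were 1.59, 1.81 and 1.56 with and 8.58, 7.41 and 7.93 without stimulation. The ratio was lower in every stimulated library, and in both states every Gpx4-deficient library was above every WT one. Laptm5 alone was also separate between genotypes in both states, while Cd247 overlapped, so the ratio is not support independent of Laptm5. Against the sum of all 4 chains the ratio was 0.53, 0.50 and 0.41 in stimulated Gpx4-deficient, 0.37, 0.40 and 0.38 in stimulated WT, 1.29, 1.14 and 1.00 in unstimulated Gpx4-deficient and 0.98, 0.83 and 0.97 in unstimulated WT libraries. Other blood cells also express Laptm5. The monocyte and macrophage markers Csf1r, Lyz2, Cd14 and Adgre1, none at 0 in any group, summed to 60.2 to 69.3 CPM in stimulated and 105 to 147 CPM in unstimulated Gpx4-deficient libraries. In WT libraries the sum was 23.0 to 56.9 CPM with and 132 to 225 CPM without stimulation, and Csf1r and Lyz2 were called lower there. The part of such cells in the Laptm5 values was not tested.

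Between genotypes the stimulated cells differed in 3 of the 9 genes: Laptm5 was higher and Lck and Zap70 were lower in Gpx4-deficient cells. Of all tested genes 1.03% were called higher and 1.25% lower in that comparison. For 4 of 9 members, 2 higher and 2 lower, the libraries of the genotypes did not overlap, against 20.1% of all genes. The members' median log2 fold change was 0.05, beside 0.00 over all genes.

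**Figure D4:**
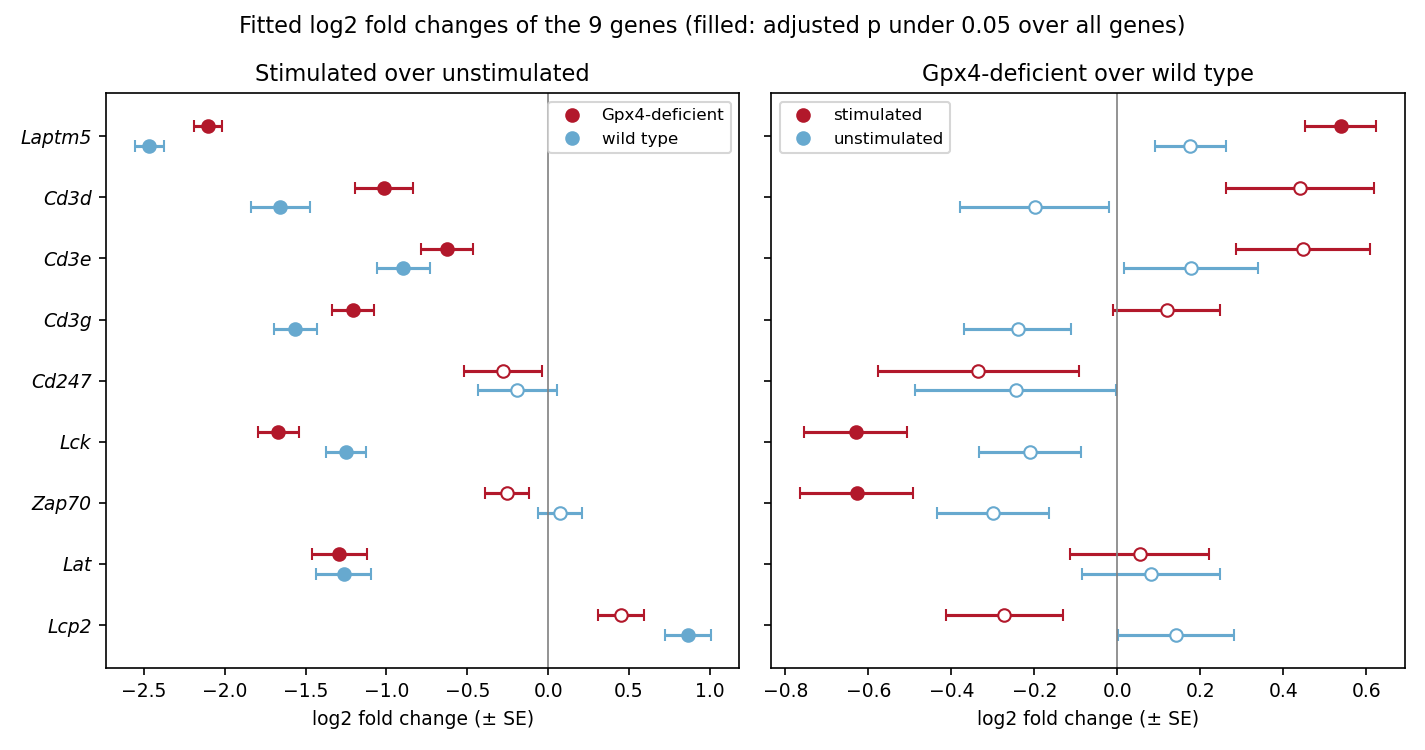
Log2 fold changes with SE for the 9 genes, on the left stimulated over unstimulated in Gpx4-deficient and WT cells, on the right Gpx4-deficient over WT in stimulated and unstimulated cells. Filled points have an adjusted p under 0.05 over all genes (edgeR), which on the right holds for Laptm5, Lck and Zap70 in stimulated cells.

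In stimulated cells Laptm5 averaged 613 ± 44.4 CPM in Gpx4-deficient and 422 ± 21.5 CPM in WT libraries (SD, n = 3 each), and every Gpx4-deficient library was above every WT one. The log2 fold change was 0.54 (SE 0.09, adjusted p = 0.00778) by edgeR, and leaving out any 1 library kept the call, with log2 values between 0.50 and 0.63. In unstimulated cells it averaged 2631 ± 209 CPM in Gpx4-deficient and 2329 ± 91.5 CPM in WT libraries, again without overlap, and the log2 fold change of 0.18 (SE 0.09) was not called (adjusted p = 0.883). The difference in response between genotypes was 0.36 (SE 0.12, adjusted p = 0.423) on the log2 scale (edgeR), so it did not pass, while DESeq2 gave an adjusted p of 0.0327 for it.

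Lck averaged 578 ± 93.0 CPM in stimulated Gpx4-deficient and 895 ± 115 CPM in stimulated WT libraries, with no overlap and a log2 difference of -0.63 (SE 0.12, adjusted p = 0.0238) by edgeR. Zap70 averaged 214 ± 18.6 and 331 ± 36.2 CPM in the same groups, also with no overlap, and its log2 difference was -0.63 (SE 0.14, adjusted p = 0.036). Both kinases thus had lower shares of the library in stimulated Gpx4-deficient cells, by similar log2 amounts. The Lck call was lost without WT replicate 1 (adjusted p = 0.133), WT replicate 3 (0.097) or Gpx4-deficient replicate 1 (0.0525). The Zap70 call was lost without WT replicate 1, 2 or 3 (adjusted p = 0.184, 0.0893 and 0.132), without Gpx4-deficient replicate 1 or 3 (0.067 and 0.0778), and with no filter on low counts (0.0562). In a fit of the 6 stimulated libraries alone none of the 3 genes passed, at adjusted p of 0.135 for Laptm5, 0.171 for Lck and 0.165 for Zap70.

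The other members were not called between genotypes in stimulated cells. Cd3d averaged 186 ± 32.3 CPM in Gpx4-deficient and 137 ± 27.0 CPM in WT libraries (log2 fold change 0.44 (SE 0.18, adjusted p = 0.224)), and its libraries overlapped. Cd3e averaged 452 ± 122 and 332 ± 30.2 CPM (log2 fold change 0.45 (SE 0.16, adjusted p = 0.178)), and here every Gpx4-deficient library was above every WT one. DESeq2 called Cd3e higher (adjusted p = 0.042). The log2 fold changes of Cd3g, Cd247, Lat and Lcp2 were 0.12, -0.34, 0.05 and -0.27. That of Lcp2 passed only without Gpx4-deficient replicate 3, at -0.47 (adjusted p = 0.047).

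Without stimulation none of the 9 genes was called between genotypes by edgeR, where 0.0674% of all genes were. Of the 9, 1 had an unadjusted p under 0.05, where 5.8% of all genes had, and DESeq2 called 0, where it called 1.3% of the genes it gave an adjusted p. The libraries of the genotypes were separate for 3 members, Laptm5 (higher) and Lck and Zap70 (lower), against 18.3% of all genes. Lck averaged 1839.9 ± 145 CPM in Gpx4-deficient and 2128 ± 58.6 CPM in WT libraries, and differed by -0.21 (SE 0.12, adjusted p = 0.985) on the log2 scale (edgeR). Zap70 averaged 256 ± 39.2 and 314 ± 10.4 CPM and differed by -0.30 (SE 0.14, adjusted p = 0.861). The remaining members had log2 fold changes from -0.24 (Cd247) to 0.18 (Cd3e).

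The response to stimulation did not differ between genotypes past the threshold for any member by edgeR, where 0.202% of all genes did. Of the 9 genes, 3 had an unadjusted p under 0.05, where 8.75% of all genes had, and DESeq2 called 1, Laptm5, where it called 2.7% of its genes. The difference in log2 response, Gpx4-deficient minus WT, was 0.64 (SE 0.25, adjusted p = 0.506) for Cd3d, 0.36 for Cd3g, 0.27 for Cd3e and -0.09 for Cd247. It was -0.42 (SE 0.17, adjusted p = 0.536) for Lck, -0.33 for Zap70, -0.41 for Lcp2 and -0.027 for Lat. The comparisons share groups (the stimulated Gpx4-deficient libraries enter both a genotype and a stimulation comparison), so their values stand side by side and are not independent.

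Beside the 9 genes, 105 others of the pathway in 8 lists gave the wider picture, and 104 of them were tested. With stimulation 24 rose and 31 fell in Gpx4-deficient cells, and 22 rose and 25 fell in WT cells. Of all tested genes 7.45% rose and 7.83% fell in Gpx4-deficient cells, and 6.12% rose and 5.41% fell in WT cells (edgeR). The median log2 fold change of the 104 genes was -0.21 in Gpx4-deficient and -0.22 in WT cells, beside -0.02 and -0.03 over all genes. Of the antigen-binding and other TCR chain genes, 4 of 7 fell in Gpx4-deficient cells and 2 of 7 in WT cells. Trbc2 averaged 459 ± 97.3 CPM in stimulated and 1082 ± 26.6 CPM in unstimulated Gpx4-deficient libraries, and 377 ± 19.6 against 1155 ± 15.6 CPM in WT libraries, with log2 fold changes of -1.24 and -1.61 (adjusted p = 6.12e-05 and 7.34e-06, edgeR). Trbc1 gave -1.01 and -1.27, but Trbc1 and Trbc2 are near-identical, so the split of reads between them is uncertain. Trac, the constant region of the alpha chain, was not called, at 1010.4 ± 87.8 against 1176 ± 142 CPM in Gpx4-deficient and 900.0 ± 69.4 against 1060.4 ± 29.4 CPM in WT cells. The gamma chain genes Trgc2 and Trgc4 held 2 and 2 counts over the 3 stimulated Gpx4-deficient libraries, against 254 and 411 in the unstimulated ones. How reads were split among the gamma chain genes was not tested. In WT cells they held 141 and 132 counts with and 297 and 298 without stimulation. Their calls in Gpx4-deficient cells were each lost without any of 5 single libraries of that genotype (adjusted p up to 0.108 and 0.0913).

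**Figure D5:**
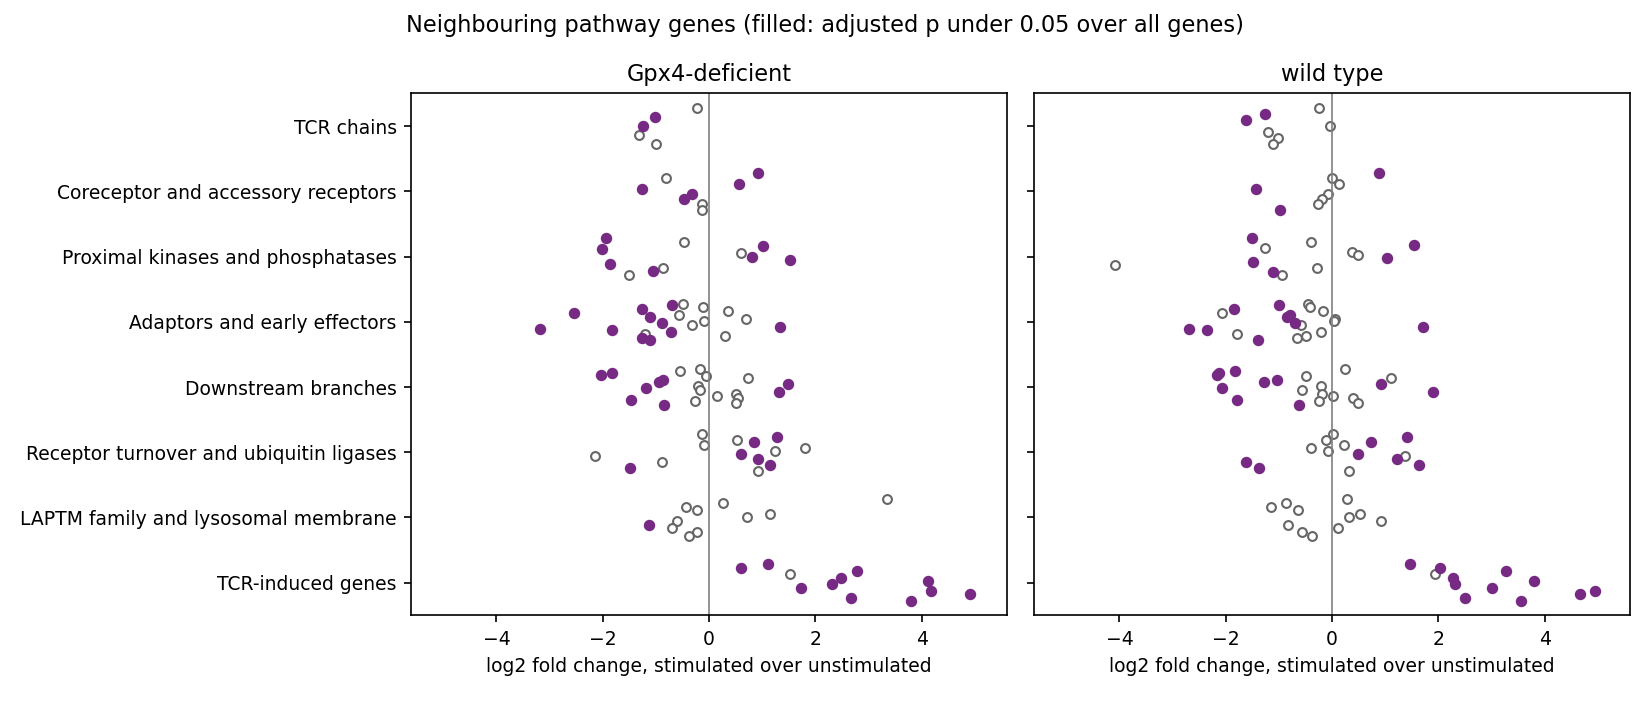
Log2 fold changes (stimulated over unstimulated) of the pathway genes outside the 9, by list, in Gpx4-deficient (left) and WT cells (right); filled points have an adjusted p under 0.05 over all genes (edgeR). Trgc2, Trgc4 and Syk are not drawn on the left because a group there had at most 3 counts in sum; the TCR-induced genes lie to the right of 0 in both genotypes.

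Among coreceptor and accessory receptor genes, Cd4 fell and Cd2 rose in both genotypes. Cd4 averaged 331 ± 80.9 CPM in stimulated and 790.3 ± 34.7 CPM in unstimulated Gpx4-deficient libraries (log2 -1.25), and 277 ± 36.9 against 749.7 ± 18.5 CPM in WT libraries (log2 -1.44). Cd2, an adhesion receptor, gave log2 fold changes of 0.93 and 0.89. In this list 2 rose and 3 fell of 8 in Gpx4-deficient cells, and 1 rose and 2 fell in WT cells. Each call made in Gpx4-deficient cells only was lost without some single libraries, 2 to 4 of the 6 left out in turn.

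The proximal kinases and phosphatases around LCK split in the same way. Csk, the kinase that inhibits LCK, fell by 1.93 in Gpx4-deficient and by 1.50 in WT cells on the log2 scale (adjusted p = 0.000165 and 0.000924, edgeR), and the phosphatase gene Ptpn6 fell by 1.86 and 1.48. Ptpn22, a phosphatase that acts on LCK and ZAP70, rose by 1.52 and 1.03. Counts were 3 higher and 5 lower of 12 in Gpx4-deficient cells and 2 higher and 3 lower in WT cells. Each call made in Gpx4-deficient cells only was lost without some single libraries, 4 or 5 of the 6 left out in turn.

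In the list of adaptors and early effectors, 1 rose and 10 fell of 20 in Gpx4-deficient cells, and 1 rose and 8 fell in WT cells. Some of the calls made in 1 genotype only were lost without single libraries, 3 to 6 of the 6 left out in turn. The lower ones included Sit1, an inhibitory transmembrane adaptor, at 11.3 ± 3.11 CPM in stimulated and 103 ± 7.45 CPM in unstimulated Gpx4-deficient libraries and 16.5 ± 0.962 against 107 ± 3.03 CPM in WT libraries. Skap1, an adaptor of integrin activation, gave log2 fold changes of -1.83 in Gpx4-deficient and -2.36 in WT cells. Sh2d2a, which encodes an LCK-binding adaptor, was the gene that rose, by 1.33 and 1.71.

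Downstream of LAT, 2 of 20 genes rose and 7 fell in Gpx4-deficient cells, and 2 rose and 8 fell in WT cells. In each genotype some of these calls were lost without single libraries, 2 to 4 of the 6 left out in turn. The diacylglycerol kinase genes Dgka and Dgkz, whose enzymes remove the second messenger diacylglycerol, fell by 1.83 and 2.04 in Gpx4-deficient cells and by 2.12 and 2.16 in WT cells. Prkcq, the T cell protein kinase C theta, gave -1.47 and -1.78, and Malt1, the protease of the NF-kB branch, rose by 1.48 and 0.92.

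In the list of receptor turnover and ubiquitin ligase genes, 5 rose in each genotype, and 1 fell in Gpx4-deficient and 2 in WT cells, of 14. In each genotype a call was lost without 1 of the 6 libraries left out in turn. Cblb, a ubiquitin ligase that restrains TCR signalling, averaged 434 ± 34.7 CPM in stimulated and 179.7 ± 12.4 CPM in unstimulated Gpx4-deficient libraries and 442 ± 34.5 against 165 ± 11.2 CPM in WT libraries. Sla, whose product SLAP targets the TCR complex for degradation, rose by 0.92 and 1.23, and Ubash3a fell by 1.49 and 1.37.

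The relatives of Laptm5 and other lysosomal membrane genes gave 1 call in Gpx4-deficient cells, the cation channel gene Mcoln1 (log2 -1.14, adjusted p = 0.0105, but 0.0513 without unstimulated replicate 2 and 0.0694 in a fit of the 6 libraries alone). In WT cells edgeR called none of the 11, and 1 had an unadjusted p under 0.05, where 23.3% of all genes had. Their median log2 fold change was -0.22 in Gpx4-deficient and -0.37 in WT cells, beside -2.10 and -2.46 for Laptm5 itself.

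Of 12 TCR-induced genes, 11 rose in each genotype. Among them the Egr1 call in Gpx4-deficient cells was lost without stimulated replicate 1 or 2 or unstimulated replicate 3 (adjusted p up to 0.0839), with upper quartile scaling, and in a fit of those 6 libraries alone (0.144). Nr4a3, a TCR-responsive nuclear receptor, averaged 679.6 ± 106 CPM in stimulated and 22.6 ± 3.15 CPM in unstimulated Gpx4-deficient libraries and 883 ± 139 against 34.7 ± 1.64 CPM in WT libraries. Irf4, a transcription factor of effector Treg cells, rose by 4.13 and 3.79 on the log2 scale.

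Between genotypes in stimulated cells, 5 of the 104 genes were higher and 1 lower in Gpx4-deficient cells by edgeR, where 1.03% and 1.25% of all genes were. Ptpn22 averaged 927 ± 67.9 CPM in Gpx4-deficient and 624 ± 63.3 CPM in WT libraries (log2 0.57, adjusted p = 0.0238). Fyb, an adaptor that binds SLP-76, averaged 422 ± 12.4 and 241 ± 40.0 CPM (log2 0.81), and Malt1 279.5 ± 29.5 and 140.0 ± 25.2 CPM (log2 0.997). Nfatc2, a calcium-regulated transcription factor, and Itpr2, a calcium release channel, gave log2 values of 1.39 and 0.82. Nr4a1 was the lower one, at 1583 ± 205 CPM in Gpx4-deficient and 3174 ± 27.5 CPM in WT libraries (log2 -1.004, adjusted p = 0.00187). The calls of Nr4a1 and Malt1 held with each of the 6 stimulated libraries left out in turn. Fyb was lost without WT replicate 1 or 2 (adjusted p up to 0.145), Nfatc2 without WT replicate 1 or 3 or Gpx4-deficient replicate 2 (up to 0.144), and Ptpn22 without WT replicate 2 or 3 or Gpx4-deficient replicate 3 (up to 0.0684). The call of Itpr2 held only without Gpx4-deficient replicate 1 and was lost without each of the other 5 (up to 0.178). DESeq2 called 27 of the 104, where it called 11.5% of its genes, and a fit of the 6 stimulated libraries alone called 1, Nr4a1. In unstimulated cells edgeR called none of the 104, 11 had an unadjusted p under 0.05, and DESeq2 called 4, beside the 5.8% and 1.3% of all genes given above. The response differed between genotypes for Nr4a1 and Egr1, whose log2 responses were smaller in Gpx4-deficient cells by 1.28 and 1.43 (adjusted p = 0.0204 and 0.0359, edgeR). Both calls were lost without any 1 of the 6 WT libraries or without unstimulated Gpx4-deficient replicate 1 or 2, with adjusted p up to 0.144 for Nr4a1 and 0.18 for Egr1.

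The genes with levels most like those of Laptm5 over the 12 libraries were Arhgap45, Arhgap4, Dgkz, Rac2 and Dgka. Likeness was the root mean square difference of log2 CPM, each gene centred on its own mean, over the 5515 genes whose log2 CPM averaged 5 or more, and these genes differed from Laptm5 by 0.12, 0.18, 0.18, 0.19 and 0.22. Among the other members the values ran from 0.52 (Cd3d) to 1.50 (Lcp2). Arhgap45, which encodes a GTPase activating protein, averaged 432 ± 47.3 CPM in stimulated Gpx4-deficient, 298 ± 36.3 in stimulated WT, 2049.9 ± 178 in unstimulated Gpx4-deficient and 1829.7 ± 153 CPM in unstimulated WT libraries. It was also called higher in stimulated Gpx4-deficient than in stimulated WT cells (log2 0.53, adjusted p = 0.0387, edgeR). That call was lost without stimulated WT replicate 2 or 3 or stimulated Gpx4-deficient replicate 3 (adjusted p up to 0.0869). A fit of the 6 stimulated libraries alone also lost it (0.168). Arhgap4, Dgkz, Rac2 and Dgka were not called in that comparison. Likeness was taken over these same libraries, so a genotype difference like that of Laptm5 is part of how Arhgap45 was chosen. Rac2, a small GTPase of blood cells, averaged 615 ± 79.2 CPM in stimulated Gpx4-deficient, 582 ± 65.3 in stimulated WT, 3038 ± 103 in unstimulated Gpx4-deficient and 2884 ± 163 CPM in unstimulated WT libraries.

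For the mean of the 4 CD3 chains the nearest genes were Actb, Trbc1, Tsc22d3, Dok2 and H2-T23, at differences of 0.12, 0.12, 0.13, 0.14 and 0.14. Actb, the cytoskeletal actin, averaged 692 ± 89.7 CPM in stimulated Gpx4-deficient, 717 ± 73.9 in stimulated WT, 1348 ± 65.7 in unstimulated Gpx4-deficient and 1518 ± 33.3 CPM in unstimulated WT libraries. Tsc22d3, the glucocorticoid-induced leucine zipper gene, averaged 168 ± 51.0, 135 ± 15.4, 274.96 ± 19.1 and 292 ± 36.6 CPM in the same order. The members themselves lay between 0.22 (Cd3e) and 0.82 (Lcp2) from that mean. Taking the 9 genes as a sum, they held 0.37% ± 0.03 of the counts of stimulated Gpx4-deficient libraries, 0.41% ± 0.01 of stimulated WT, 0.79% ± 0.02 of unstimulated Gpx4-deficient and 0.81% ± 0.02 of unstimulated WT libraries (SD, n = 3 each).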

How the data were processed

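RNA from sorted mouse Treg cells was sequenced in 12 libraries made from 600 ng of RNA each with a stranded mRNA kit, per the labels' protocols. The deposited table holds RSEM expected counts per gene symbol, made by the authors; the submitters' processing notes name GRCm38. Not given in the sources used here were the aligner, the software versions and the strand setting. Between 14.79% and 18.1% of values per library were not whole, and expected counts were rounded before testing. CPM and all tests were computed here. Library totals put 5 CPM at 123 reads or more.

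All 12 libraries entered 1 fit of 4 group means in edgeR 4.0.16 (R 4.3.3, quasi-likelihood F test, robust, TMM scaling, filterByExpr). The code was checked on simulated counts with a spread set below that of these libraries. That check does not show how the test performs at their spread. A call is a Benjamini-Hochberg adjusted p under 0.05 over all 14827 genes, with no minimum fold, and SE comes from the F statistic. Per-kb levels use the union of GENCODE M21 exons, and 14540 of the tested genes had a length. Likeness used a prior count of 2. The members and lists were chosen with earlier results of these data known. Text names all 9 members and, per list and comparison, up to 4 called genes by smallest adjusted p, or the 1 with the smallest p; 1 called gene is not reported here. Csf1r and Lyz2 are the called monocyte markers. Alternatives were DESeq2 1.42.0, RLE and upper quartile scaling, no filter, a fit of the 2 groups alone, the replicate number as a block, each library left out, and longest transcripts for lengths.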

Additional observations from a re-analysis of the deposited data

Results flagged for a closer look

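Nr4a1, an orphan nuclear receptor gene induced by TCR signals, passed the test of a difference in response between genotypes with all 12 libraries. It averaged 1583 ± 205 CPM in stimulated Gpx4-deficient and 3174 ± 27.5 CPM in stimulated WT libraries, against 478 ± 77.0 and 394 ± 33.2 CPM in the same genotypes without stimulation (SD, n = 3). The difference in log2 response was -1.28 (SE 0.17, adjusted p = 0.0204, edgeR). Leaving out 1 library lost the call in 8 of 12 cases (adjusted p up to 0.144), and the log2 difference over all alternatives ran from -1.38 to -1.12. Gpx4-deficient libraries were all below WT libraries with stimulation and all above them without it.

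Egr1, an immediate early transcription factor gene, showed the same kind of difference, with -1.43 (SE 0.23, adjusted p = 0.0359, edgeR). It averaged 800.1 ± 82.3 CPM in stimulated Gpx4-deficient and 1198 ± 98.7 CPM in stimulated WT libraries, and 529.9 ± 131 against 294 ± 16.2 CPM without stimulation. The call was lost in the same 8 of 12 cases (adjusted p up to 0.18).

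Slamf6, an accessory receptor gene, stood at 260.3 ± 59.0 CPM in stimulated Gpx4-deficient and 164 ± 11.0 CPM in stimulated WT libraries, with every Gpx4-deficient library higher. Without stimulation it stood at 286 ± 36.0 CPM in Gpx4-deficient and 322 ± 7.69 CPM in WT libraries, with every Gpx4-deficient library lower. The difference in log2 response was 0.84 and did not pass the edgeR test (adjusted p = 0.282).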

How the results depend on the processing

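The stimulation calls of the members kept their direction under every alternative run, with 5 to 6 called in Gpx4-deficient and 7 in WT cells when 1 library was left out. The genotype calls in stimulated cells were less stable: 3 members were called in the reported fit, 0 in a fit of the 2 groups alone, 1 with a replicate block, and 1 to 3 with 1 library left out. Over all pairs of groups, deviations of same-numbered libraries from their group means correlated at -0.06 to 0.03, with 6 of 18 highest at their own number. Between the states of 1 genotype the correlations were 0.030, 0.022 and 0.008 in WT cells (replicates 1 to 3). They were -0.004, 0.028 and -0.022 in Gpx4-deficient cells. The replicate block joins equal numbers across genotypes, so a pairing of states by mouse was not tested.
Calls over all genes in the order unstimulated genotype, stimulated genotype, stimulation in Gpx4-deficient, stimulation in WT and difference in response were 10, 337, 2266, 1709 and 30. With DESeq2 they were 183, 1564, 3609, 2639 and 380. With the replicate block they were 3, 171 and 5 for the first, second and last. In fits of 2 groups alone they were 22, 1022 and 3499 for the 3 middle ones. Without 1 library they ran from 3 to 14, 117 to 658, 1649 to 2521, 1150 to 1248 and 2 to 167.
For the neighbouring pathway genes DESeq2 called 4 between unstimulated and 27 between stimulated genotypes and 4 for the difference in response, where edgeR called 0, 6 and 2. The 2 stimulated groups alone gave 1, and the replicate block gave 0 for the difference in response (adjusted p = 0.0745 for Nr4a1 and 0.0939 for Egr1). In stimulated cells the block lost the genotype calls of Fyb (0.0698) and Itpr2 (0.0818). Without 1 library the pathway counts ran from 0 to 1, 3 to 17 and 0 to 4 in the same order. DESeq2 called 1 member, Laptm5, for the difference in response.
The Lat difference in response (-0.027) changed sign to 0.002 with DESeq2 and 0.003 with RLE scaling, and ran from -0.14 to 0.11 without 1 library. Without 1 library, values that also crossed 0 were the Cd247 difference in response (-0.38 to 0.18) and the genotype values of Lat in unstimulated (-0.005 to 0.24) and stimulated cells (-0.03 to 0.22), none of them called. The cause was not tested.
With the longest transcript as length, unstimulated WT levels were 267 (Cd3d), 242 (Cd3e), 258 (Cd3g), 139 (Cd247), 974 (Lck), 140.1 (Zap70), 181 (Lat), 189.8 (Lcp2) and 896 CPM per kb (Laptm5), all higher because the divisor is shorter. The divisor shrank by unequal factors, so the order moved too: Zap70 was lowest in unstimulated and Lat in stimulated Gpx4-deficient cells, where Cd247 was lowest over all exons. The common dispersion estimated within a group was 1.43 in stimulated Gpx4-deficient, 0.53 in stimulated WT, 0.67 in unstimulated Gpx4-deficient and 0.34 in unstimulated WT libraries, and the reported fit shares 1 spread over them. With 3 libraries a group, small differences in Cd247, Lat and Cd3g are not resolved.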
